A study of Arabidopsis thaliana with 12 samples.

Results

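In whole Arabidopsis thaliana seedlings, 160 probe sets for 157 genes were lower with the hormone abscisic acid (ABA) and higher with the synthetic compound DFPM, each against solvent control. They were chosen on group means of log2 expression, as ABA minus control of at most -1 together with DFPM minus control of at least 1. Only probe sets naming 1 gene and reaching log2 4 on at least 3 arrays could be chosen, which left 7705 of 22746 gene probe sets, so the members made up 2.08% of the candidates. A further 9 probe sets met the same values but were left out by gene name, and 148 more met them without naming a single gene and are not described here. Of the members, 20 carry a RefSeq gene symbol and the other 140 are known here by locus tag alone, so no role is given for those, apart from AT3G13610, for which RefSeq lists the synonym F6'H1.

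Seedlings of the Col0 ecotype, 12 days old and raised on plates, were moved to wells and treated, and RNA of the whole seedling was hybridised to 1-colour Affymetrix arrays, 3 per group. The groups were ABA+DFPM (10 µM ABA and 30 µM DFPM, with DFPM given 30 min ahead of the hormone), DFPM alone (30 µM), ABA alone (10 µM) and a control with diluted DMSO. The labels give 6 h for the 3 treated groups and no time for the control. Nothing in the labels ties the 3 arrays of a group to independent cultures. The p-values therefore describe only how far these samples spread, and that spread may be technical.

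ABA accumulates in drought and in seeds. Its receptors hold back a class of protein phosphatases, which frees kinases that switch on stress genes and close stomata, and the hormone is also known to restrain parts of plant immunity. DFPM came from a chemical screen for compounds that weaken ABA responses and is known to act through components of immune receptor signalling. Genes that the hormone lowers and the compound raises therefore lie where the effects of these agents oppose each other, and the seedlings given both show which level such a gene takes.

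All values are the deposited log2 expression values, so a difference of 1 is a doubling. The arrays numbered 1 and 2 of each group were close to each other (lowest r 0.987, highest 0.992, over the probe sets). Array 3 was less like them, with r of 0.875 to 0.920. In bulk tissue, fewer cells of a type and less RNA per cell cannot be told apart. Of the marker genes for tissues in a whole seedling, 2 of 6 for green tissue, 2 of 7 for root, 1 of 6 for guard cells and 0 of 3 for seed were named on the array. The mean level of the green markers RCA and LHCB4.1 ran from 9.19 to 12.1 with ABA+DFPM, 9.51 to 12.53 with DFPM, 12.03 to 12.83 with ABA and 12.94 to 13.47 in control. The root markers EXP7 and EXP18 averaged 4.16 to 5.76 with ABA+DFPM, 5.34 to 5.70 with DFPM, 5.97 to 6.46 with ABA and 6.28 to 6.58 in control, and the guard cell gene FAMA lay at 4.09 to 7.15 with ABA+DFPM, 5.18 to 7.09 with DFPM, 4.47 to 6.71 with ABA and 5.75 to 7.13 in control. The part of these shifts in the results on the members was not tested.

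The members' median level was 9.30 with DFPM, 5.21 with ABA and 7.11 in control, where the median over all 14401 probe sets tested lay from 7.31 to 7.35 in all 4 groups. The median difference was -1.55 for ABA minus control and 1.76 for DFPM minus control, against -0.09 and -0.08 over all probe sets. These differences chose the members and are therefore given without a test. The lowest ABA minus control was that of AT3G23550, at -6.14, and the highest DFPM minus control that of AT3G09405, at 5.63. At the limit of the rule, AT1G26240 (-1.01 and 3.98) and AT4G24350 (-2.49 and 1.01) lay just inside, and AT5G22555 (-0.99 and 4.27) and AT4G36150 (-1.11 and 0.99) just outside. In 50 of the 160 the smaller of both changes was under 1.2, and in 26 it was at least 2. With ABA 48 members had a mean under log2 4, near the lower end of the scale, and in control 12 did.

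**Figure D1:**
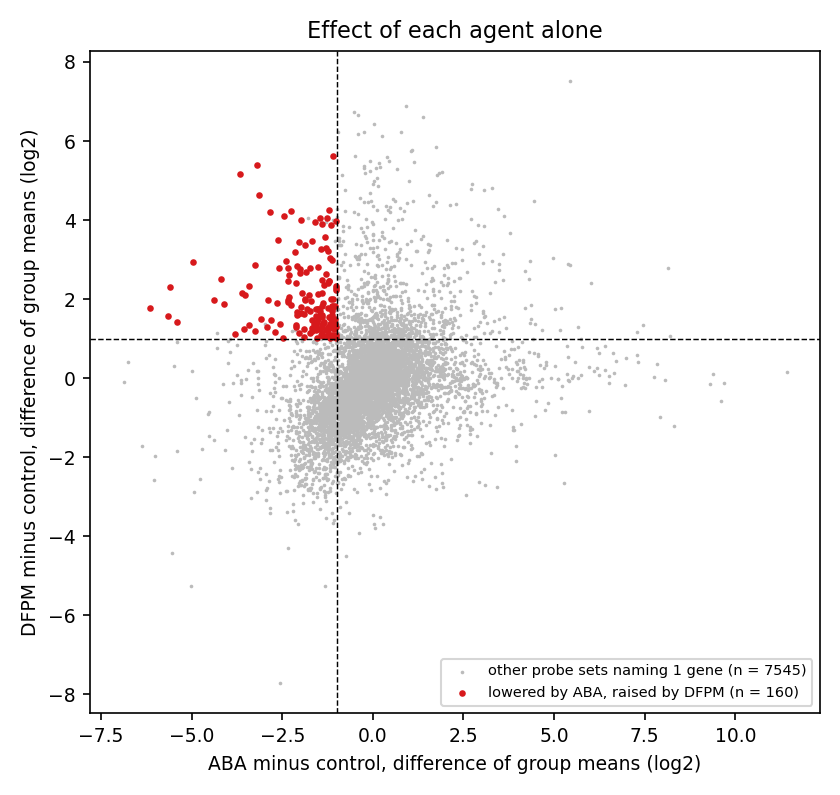
ABA minus control on the horizontal axis and DFPM minus control on the vertical axis, both as differences of group means on the log2 scale, for the 7705 candidate probe sets; the dashed lines are the limits of the rule and red points are the 160 members. The members fill the corner at upper left, most of them close to the limits, with a few reaching -6.14 on the horizontal and 5.63 on the vertical axis.

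The 12 members with the largest changes both ways show what the rule found. Of all members, AT4G08780 had the largest smaller change, with levels of 11, 10.67 and 12.33 with DFPM, 2.19, 2.21 and 3.09 with ABA and 4.66, 5.84 and 8.01 in control. It lies next door to Prx37, the gene of peroxidase 37, which is a member too. CCOAMT encodes a caffeoyl-CoA methyltransferase of phenylpropanoid synthesis and stood at 11.6, 11.5 and 12.9 with DFPM, 3.15, 3.53 and 3.53 with ABA and 7.97, 6.99 and 4.85 in control. AT3G13610, also known as F6'H1, encodes the enzyme that hydroxylates feruloyl-CoA on the way to the coumarin scopoletin. It had 11.74, 11.9 and 13.26 with DFPM, 3.18, 3.04 and 6.99 with ABA and 8.67, 8.39 and 11 in control. In these 3 genes the arrays of the single treatments did not overlap those of control in either direction.

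AT1G51890 had 10.81, 10.64 and 11.67 with DFPM, 3.92, 4.48 and 6.35 with ABA and 8.35, 7.67 and 8.47 in control. AT3G16530 was among the most abundant members, at 13.63, 13.51 and 13.98 with DFPM, 6.88, 7.27 and 6.88 with ABA and 11.52, 11.32 and 10.76 in control. Both held their order on every array. PDF1.4, a gene of the plant defensins, small cysteine-rich antimicrobial proteins, had 11.14, 11.33 and 5.19 with DFPM, 3.89, 4.1 and 2.35 with ABA and 8.81, 8.46 and 3.36 in control. Its array numbered 3 was low in every group, so its groups overlapped although the order of treatments was the same within each number. The other 6 of the 12 (AT3G03670, AT4G18250, AT5G48540, AT1G06830, AT4G19370 and AT1G02360) had group means from 7.70 to 11.62 with DFPM, 2.29 to 5.51 with ABA and 4.92 to 8.13 in control.

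**Figure D2:**
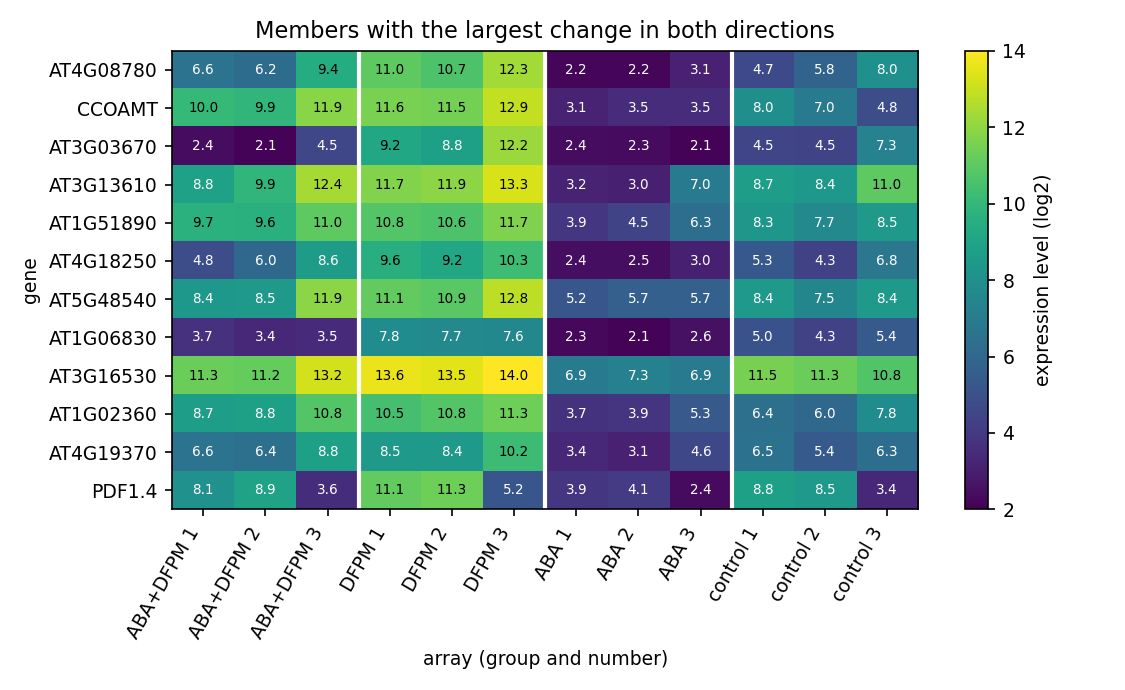
Expression level (log2, colour and printed value) of the 12 members with the largest smaller change, on each of the 12 arrays; columns are grouped as ABA+DFPM, DFPM, ABA and control. Within each array number the DFPM value exceeds the control value and the ABA value lies below it in all 12 genes, with all values of PDF1.4 low on the arrays numbered 3, while the ABA+DFPM columns range from near the DFPM level in CCOAMT (10.02, 9.89 and 11.87) to near the ABA level in AT3G03670 (2.41, 2.14 and 4.55).

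The opposite directions were also read in arrays that the limits on the differences did not use. The filter on low values counted all arrays, so the left-out arrays still entered it. Arrays 1 and 2 of each group were close to each other, so a set chosen with either was not independent of the other. The shares below are therefore a description, and those of numbers 1 and 2 do not show replication. The rule was applied to the arrays of 2 numbers and the differences were read within the third number. Of 169 probe sets chosen without number 1, 95.9% were lower with ABA and higher with DFPM in number 1, against 17.0% of all candidates. For number 2 it was 93.1% of 159, against 16.0%, and for number 3 it was 92.3% of 143, against 17.2%. Both differences exceeded 1 in the left-out number for 60.4%, 58.5% and 53.8%, against 2.02%, 1.74% and 2.35% of all candidates. Among the 160 members themselves, 154 had both directions in every number, and in 104 the arrays of ABA, control and DFPM did not overlap at all. These arrays chose the members, so both counts are largely fixed by the rule, and they were not made over all candidates.

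The comparison of ABA+DFPM with control asked which level these genes take when the hormone and the compound are given together. The ABA+DFPM arrays were not used by the rule's limits on the differences. They entered only the log2 4 filter, which counted all 12 arrays. AT3G09405 had 8.67, 8.52 and 10.37 with ABA+DFPM and 3.99, 3.89 and 5.21 in control. Every treated array was above every control array, and the gene rose by 4.82 ± 0.56 (log2 fold change ± SE, n = 3 arrays per group, limma, adjusted p = 0.00013), a 28.3-fold difference. CCOAMT had 10.02, 9.89 and 11.87 with ABA+DFPM against the control values given above and rose by 3.99 ± 0.77 (adjusted p = 0.0023). AT3G54150 had 9.70, 10.15 and 10.64 with ABA+DFPM and 7.56, 7.08 and 6.79 in control, a rise of 3.02 ± 0.34 (adjusted p = 0.000101). AT1G35210, at 7.39, 7.18 and 8.49 with ABA+DFPM and 4.75, 2.96 and 6.11 in control, rose by 3.08 ± 0.76 (adjusted p = 0.00825). AT5G05300 and AT3G47480 rose by 2.70 ± 0.79 and 2.69 ± 0.87 (adjusted p = 0.0184 and 0.0281), and both calls were lost without control replicate 2, AT3G47480 also without control replicate 1 or ABA+DFPM replicate 2 or 3 (adjusted p up to 0.0888).

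In the other direction, AT4G11290 had 6.26, 6.61 and 7.70 with ABA+DFPM and 8.25, 8.70 and 9.29 in control, without overlap, a change of -1.89 ± 0.39 (adjusted p = 0.00326). AT1G06830 had 3.69, 3.39 and 3.49 with ABA+DFPM and 5.04, 4.35 and 5.39 in control, a change of -1.40 ± 0.25 (adjusted p = 0.00156). AT5G04310 has 2 member probe sets, and the brighter had 4.48, 3.82 and 4.05 with ABA+DFPM and 6.53, 6.67 and 4.88 in control, a change of -1.91 ± 0.51 (adjusted p = 0.0122, or 0.0507 without control replicate 2). With replicate numbers in the limma fit and arrays 1 and 2 averaged, adjusted p was 0.0409 for this probe set and 0.296 for the other. Against ABA, the brighter probe set of AT5G04310 gave 0.07 ± 0.51 and AT1G06830 rose by 1.2 ± 0.25 (adjusted p = 0.0134, or 0.0501 to 0.0569 without ABA replicate 1 or 2). The ABA+DFPM and ABA arrays of AT1G06830 all lay under log2 4. With values under 4 set to 4 its difference was 0.0 against ABA, so that rise lay wholly near background, and -0.92 against control.

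Some of the most negative values did not pass. AT4G33720 had 2.14, 2.41 and 10.30 with ABA+DFPM, 11.85, 11.36 and 13.75 with DFPM, 2.20, 2.40 and 10.76 with ABA and 9.41, 10.09 and 12.78 in control. Within each number the level with both agents was close to that with ABA alone and below control, and the change against control was -5.81 ± 2.57 (adjusted p = 0.0871, with a blocked value of 0.00377 when replicate numbers enter the fit and 0.0567 when arrays 1 and 2, which were close to each other, are also averaged). AT3G03670 gave -2.39 ± 1.02 (adjusted p = 0.0787, blocked 0.00785, averaged 0.0507). For AT3G54040 the change was -1.93 ± 1.01 (adjusted p = 0.14, blocked 0.0017, averaged 0.0364), and for AT1G21320 it was -1.89 ± 1.29 (adjusted p = 0.25, blocked 0.0122, averaged 0.12).

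Over the whole set, ABA+DFPM minus control had a median of 0.56, with quartiles of -0.25 and 1.27, against -0.06 over all probe sets. Of the 160 members 30 passed as higher, or 18.8%, where 22.0% of all probe sets did, and 6 passed as lower, or 3.75%, where 25.4% did. Together 22.5% of the members differed from control, against 47.4% of all probe sets. The typical size of the change was similar, with a median absolute difference of 0.87 in members and 0.84 over all, and the members' SE was larger, at a median of 0.57 against 0.32. Counted by arrays that do not overlap, 35 members (21.9%) lay above control, against 26.0% of all probe sets, and 8 (5%) below, against 30.2%.

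In the fit blocked by replicate number 53 members passed as higher and 14 as lower, where 29.3% and 34.9% of all probe sets did. With arrays 1 and 2 averaged in that fit the numbers were 39 and 7, where 20.9% and 26.0% of all probe sets passed. Without control replicate 2 the number higher was 17, and the number lower was 17 without ABA+DFPM replicate 3 and 10 without DFPM replicate 3. For these fits without 1 array no share over all probe sets is given, so the shifts cannot be read as particular to the members. With the arrays numbered 3 left out of all groups, 58 members were higher (36.2%) and 40 lower (25%), against 31.4% and 37.1% of all probe sets. The control arrays of this comparison also entered the rule, in both of its limits.

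**Figure D3:**
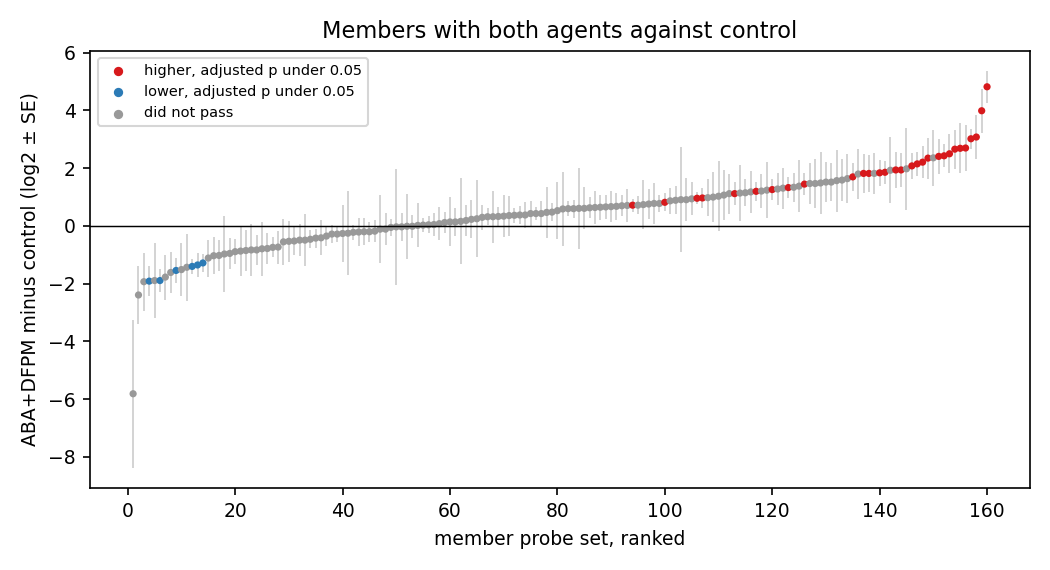
ABA+DFPM minus control (log2, points, with bars of 1 SE) for the 160 members in order of their value; red points are the 30 that passed as higher, blue the 6 that passed as lower and grey the rest. The values run from -5.81 to 4.82, and grey points make up most of the middle of the range.

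The array numbers differed in where the seedlings given both agents stood. Within number 1 the members' median for ABA+DFPM minus control was -0.03, within number 2 it was 0.36 and within number 3 it was 1.13, with 76, 99 and 127 of 160 members above control. The medians over all probe sets in the same numbers were -0.08, -0.06 and -0.05. The rise of the set as a whole against control therefore did not hold within number 1. Against the single treatments, whose arrays chose the members for low and high values, ABA+DFPM minus ABA was 1.86, 2.03 and 2.70, and ABA+DFPM minus DFPM -1.68, -1.45 and -0.84.

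**Figure D4:**
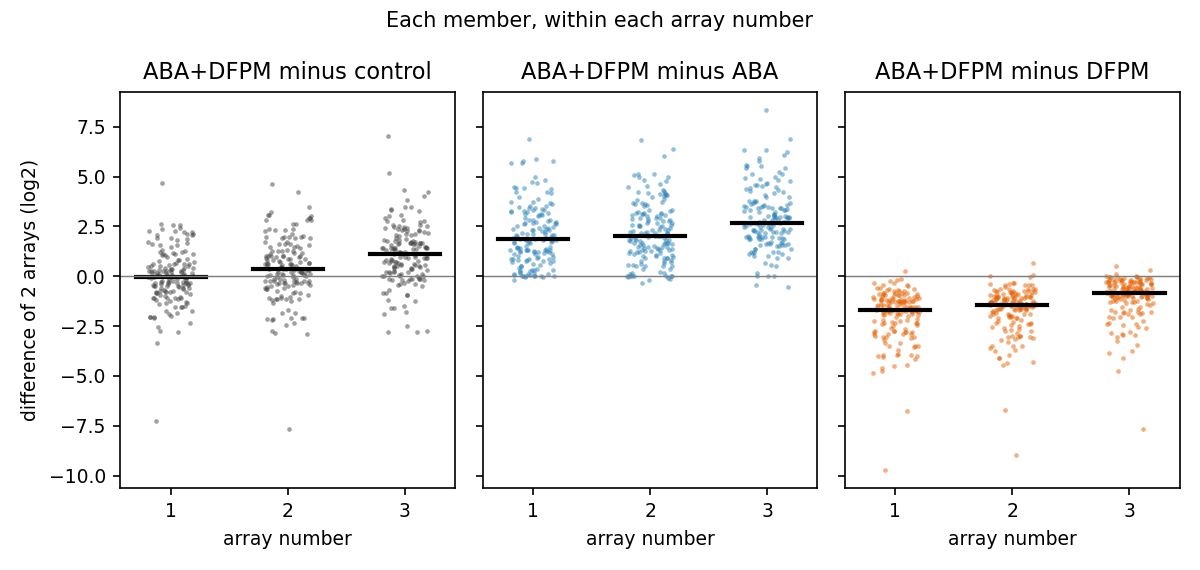
Differences between the ABA+DFPM array and the control, ABA or DFPM array of the same number (log2), 1 point per member with the median as a black bar. The medians against control are -0.03, 0.36 and 1.13 in numbers 1, 2 and 3, those against ABA lie between 1.86 and 2.70, and those against DFPM between -1.68 and -0.84.

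Setting ABA+DFPM against ABA compares seedlings given the compound ahead of the hormone with seedlings given the hormone alone. CCOAMT stood at 10.02, 9.89 and 11.87 with ABA+DFPM and 3.15, 3.53 and 3.53 with ABA, a rise of 7.19 ± 0.77 (adjusted p = 0.000458). The ABA arrays lay under log2 4, and with values under 4 set to 4 the difference was 6.59. AT3G13610 had 8.85, 9.89 and 12.4 with ABA+DFPM against 3.18, 3.04 and 6.99 with ABA and rose by 5.98 ± 1.22 (adjusted p = 0.0118, up to 0.0509 without ABA replicate 1 or 2). AT3G09405 rose by 5.93 ± 0.56, AT1G51890 by 5.18 ± 0.61 and AT1G02360 by 5.12 ± 0.67. Prx37 had 8.86, 9.01 and 11.82 with ABA+DFPM and 3.06, 2.97 and 7.23 with ABA, a rise of 5.48 ± 1.18 (adjusted p = 0.0152, up to 0.0622 without ABA replicate 1 or 2). In control it stood at 9.13, 9.51 and 11.38, with overlap between the groups.

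In all, 93 of 160 members rose against ABA and 0 fell, where 6.64% and 5.96% of all probe sets did, 12.6% together. By limma 124 members had an unadjusted p under 0.05, a count not made over all probe sets. In the alternative fits 0 members were called lower. The median was 2.26, and the arrays did not overlap in 124 members (77.5%), against 16.9% of all probe sets. The ABA arrays also chose the members for low values, so this count is not independent of the rule. At the other end, AT4G33720 gave -0.17 ± 2.57.

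Setting ABA+DFPM against DFPM shows the effect of adding the hormone to compound-treated seedlings. AT3G03670 had 2.41, 2.14 and 4.55 with ABA+DFPM and 9.16, 8.84 and 12.20 with DFPM, a change of -7.04 ± 1.02 (adjusted p = 0.00182). Of the ABA+DFPM arrays 2 lay near the lowest value of the scale, and with values under 4 set to 4 the difference was -5.89. AT1G06830 had 3.69, 3.39 and 3.49 with ABA+DFPM and 7.82, 7.67 and 7.61 with DFPM, and changed by -4.18 ± 0.25 (adjusted p = 5.06e-06). With the same floor its difference was -3.7. AT4G11290 changed by -3.86 ± 0.39 and the brighter probe set of AT5G04310 by -3.72 ± 0.51. AT4G08780 changed by -3.92 ± 0.97 (adjusted p = 0.0257), a call lost without any DFPM array or without ABA+DFPM replicate 1 or 2 (up to 0.105).

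In all, 40 of 160 members fell against DFPM and 0 rose, where 6.19% and 8.04% of all probe sets did, 14.2% together, with a median of -1.30. By limma 87 had an unadjusted p under 0.05, a count not made over all probe sets. The arrays lay apart on the lower side in 72 members (45.0%), against 17.0%. In the fit blocked by replicate number 99 members fell, where 19.0% of all probe sets did, and with arrays 1 and 2 averaged in that fit 24 fell, where 1.69% did. The number was 17 and 21 without ABA+DFPM replicates 1 and 2, 83 without ABA+DFPM replicate 3, and 22 and 19 without DFPM replicates 1 and 2. For these fits without 1 array no share over all probe sets is given, so the shifts cannot be read as particular to the members. The DFPM arrays chose the members for high values. The 3' minus 5' difference of the ubiquitin control, a sign of RNA integrity, was 0.73 to 0.97 with ABA+DFPM against 1.04 to 1.25 with DFPM, and 0.61 to 0.82 with ABA against 1.03 to 1.29 in control, without overlap. For actin it was 4.27 to 4.68 with ABA+DFPM against 4.86 to 5.05 with DFPM, and 4.56 to 4.63 with ABA against 4.86 to 5.3 in control, also without overlap. For GAPDH the ranges overlapped, at 1.05 to 1.27 with ABA+DFPM against 0.91 to 1.22 with DFPM, and 1.24 to 1.32 with ABA against 1.09 to 1.31 in control. The part of these shifts in the results was not tested.

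On a scale where the ABA level is 0 and the DFPM level is 1, the ABA+DFPM level had a median position of 0.65, with quartiles of 0.45 and 0.76. The rule sets the ABA and DFPM levels at least 2 apart on the log2 scale with control between them, so a level between them is largely fixed by the choice of members and is given as a description. The exceptions were AT2G41730, above its DFPM level at 1.06, and AT4G33720, below its ABA level at -0.02. Adding the single differences to the control level gave a sum from which the measured level differed by a median of 0.39, with quartiles of -0.19 and 0.87. That difference passed limma's interaction test in 0 of 160 members, where 0.375% of all probe sets passed, 0.153% above the sum and 0.222% below it. In that test 16 members had an unadjusted p under 0.05, a count not made over all probe sets. In the fit blocked by replicate number 4 members passed, for which no share over all probe sets is given here. With the arrays numbered 3 left out 32 passed, 18 above the sum and 14 below it, where 8.69% of all probe sets passed. The same 9 arrays that chose the members enter this sum.

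By the 3 comparisons with the single treatments and control, 48 members passed in none, against 5 in the fit blocked by replicate number and 55 in that fit with arrays 1 and 2 averaged. Without the block, in 43 the level with both agents was higher than with ABA and passed in no other comparison, and in 17 it was higher than with ABA and lower than with DFPM without passing against control. In 29 it was higher than control without passing against DFPM, which does not show that both levels were the same. The ABA, DFPM and control arrays of these comparisons also chose the members. The patterns were not counted over all probe sets.

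The 20 members with a gene symbol are described by role, a choice made after their values were seen except for CCOAMT, PDF1.4, Prx37, MSRB9, SIR, TAAC, TRI and STZ, which the naming rule gave. APS3, an ATP sulfurylase that starts sulphate assimilation, had 6.96, 7.26 and 8.82 with ABA+DFPM, 8.77, 8.06 and 11.38 with DFPM, 6.23, 6.24 and 5.99 with ABA and 7.4, 7.39 and 8.19 in control. SIR, the sulfite reductase, had 9.36, 9.72 and 11.49 with ABA+DFPM, 11.7, 11.61 and 12.35 with DFPM, 7.90, 8.03 and 9.54 with ABA and 10.15, 10.38 and 11.27 in control. With the agents together they stood at 0.02 ± 0.76 and -0.41 ± 0.60 against control, and neither passed in any of the 3 comparisons. Blocked by replicate number, SIR passed against ABA and DFPM (adjusted p = 0.00168 and 0.00178, averaged 0.0367 and 0.0696) and APS3 against DFPM (adjusted p = 0.0421, averaged 0.166).

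SUFE2, which activates sulphur transfer to iron-sulphur clusters, had 10.38, 10.48 and 11.24 with ABA+DFPM, 11.81, 11.53 and 11.57 with DFPM, 5.91, 6.37 and 8.29 with ABA and 8.15, 8.21 and 10.29 in control. It rose by 1.82 ± 0.67 against control (adjusted p = 0.047), a call lost in 9 of the 12 fits that leave out 1 array (up to 0.15), and by 3.84 ± 0.67 against ABA (adjusted p = 0.00572). MSRB9, a methionine sulfoxide reductase, had group means of 9.15, 11.14, 6.34 and 8.68 with ABA+DFPM, DFPM, ABA and in control, and its rise of 2.81 ± 0.87 against ABA passed only with the block (adjusted p = 0.0621, blocked 0.000209, averaged 0.013). SAL2, of a family of nucleotide phosphatases, had means of 6.24, 9.11, 4.58 and 7.21, and gave -0.97 ± 1.32 against control.

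TAAC, a carrier of adenine nucleotides in thylakoid membranes, had 8.15, 8.46 and 9.57 with ABA+DFPM, 10.2, 10.07 and 10.04 with DFPM, 4.85, 5.71 and 6.35 with ABA and 6.54, 6.74 and 7.38 in control. It was above control on every ABA+DFPM array and rose by 1.84 ± 0.44 (adjusted p = 0.00661).

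Among the members with a gene symbol, those tied to defence proteins and their folding (OSM34, ATERDJ3B, SGT1A and PDF1.4) gave no call against control. Members known by locus tag alone are not covered by this. Of all members only 22.5% gave a call against control, so the lack of a call is not particular to these genes. OSM34, an osmotin of the thaumatin-like family, had 12.16, 12.13 and 13.98 with ABA+DFPM, 13.58, 13.49 and 14.38 with DFPM, 8.86, 9.55 and 11.72 with ABA and 11.84, 11.76 and 12.83 in control. It gave 0.61 ± 0.73 against control and rose by 2.71 ± 0.73 against ABA (adjusted p = 0.0379), a call lost in 9 of 12 fits without 1 array. ATERDJ3B, an endoplasmic reticulum co-chaperone needed for the immune receptor EFR, had 10.34, 10.57 and 11.41 with ABA+DFPM, 11.48, 11.66 and 11.55 with DFPM, 9.03, 9.15 and 8.87 with ABA and 10.46, 10.53 and 10.24 in control. The arrays spread little with DFPM, with ABA and in control, and it gave 0.37 ± 0.25 against control and rose by 1.76 ± 0.25 against ABA (adjusted p = 0.00214).

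SGT1A, a co-chaperone of resistance proteins, had 8.93, 9.79 and 8.29 with ABA+DFPM, 11.72, 11.98 and 9.82 with DFPM, 8.05, 8.18 and 6.43 with ABA and 10.01, 10.12 and 8.47 in control. Its arrays numbered 3 were low throughout, and its change of -2.17 ± 0.71 against DFPM passed only with the block (adjusted p = 0.0702, blocked 0.000275, averaged 0.0198). PDF1.4 had 8.07, 8.92 and 3.56 with ABA+DFPM and gave -0.03 ± 2.02 against control.

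DLAH, an acylhydrolase that resembles the jasmonate enzyme DAD1, had 9.06, 9 and 9.42 with ABA+DFPM, 9.22, 9.06 and 10.41 with DFPM, 6.39, 5.41 and 3.87 with ABA and 7.41, 6.16 and 6.67 in control. It gave -0.41 ± 0.60 against DFPM and rose by 2.41 ± 0.60 against control (adjusted p = 0.00839). OPCL1, a ligase that activates jasmonate precursors for shortening in peroxisomes, had 7.05, 7.27 and 8.98 with ABA+DFPM, 9.19, 9.16 and 9.72 with DFPM, 6.94, 6.78 and 7.06 with ABA and 8.09, 7.83 and 8.95 in control. On the arrays numbered 1 and 2 its level with both agents was close to that with ABA, and it gave -0.52 ± 0.47 against control and -1.59 ± 0.47 against DFPM (adjusted p = 0.0503, blocked 0.00525, averaged 0.11).

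Of the remaining symbols, STZ (ZAT10), a zinc finger repressor of stress responses, had 10.95, 10.63 and 12.06 with ABA+DFPM, 11.68, 11.34 and 12.72 with DFPM, 9.67, 8.97 and 10.19 with ABA and 10.99, 9.37 and 12.20 in control, with wide overlap. It passed in none of the 3 comparisons (blocked adjusted p = 0.00484 against ABA, averaged 0.0325). YLS5, of the DJ-1 family, and ZCF37 rose against control by 1.70 ± 0.49 and 1.82 ± 0.63 (adjusted p = 0.0161 and 0.0367), both lost without control replicate 1 or 2, and ZCF37 in 6 of 12 such fits. The invertase-like gene cwINV6, annotated as a fructan exohydrolase, gave 1.93 ± 1.15 (adjusted p = 0.189, blocked 0.000153, averaged 0.00582), AR781 0.98 ± 0.63 and the tropinone reductase gene TRI -0.20 ± 0.34. TRI changed by -1.64 ± 0.34 against DFPM (adjusted p = 0.0127), a call lost without ABA+DFPM replicate 1 or 2 or DFPM replicate 1 (0.0517 to 0.0585).

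**Figure D5:**
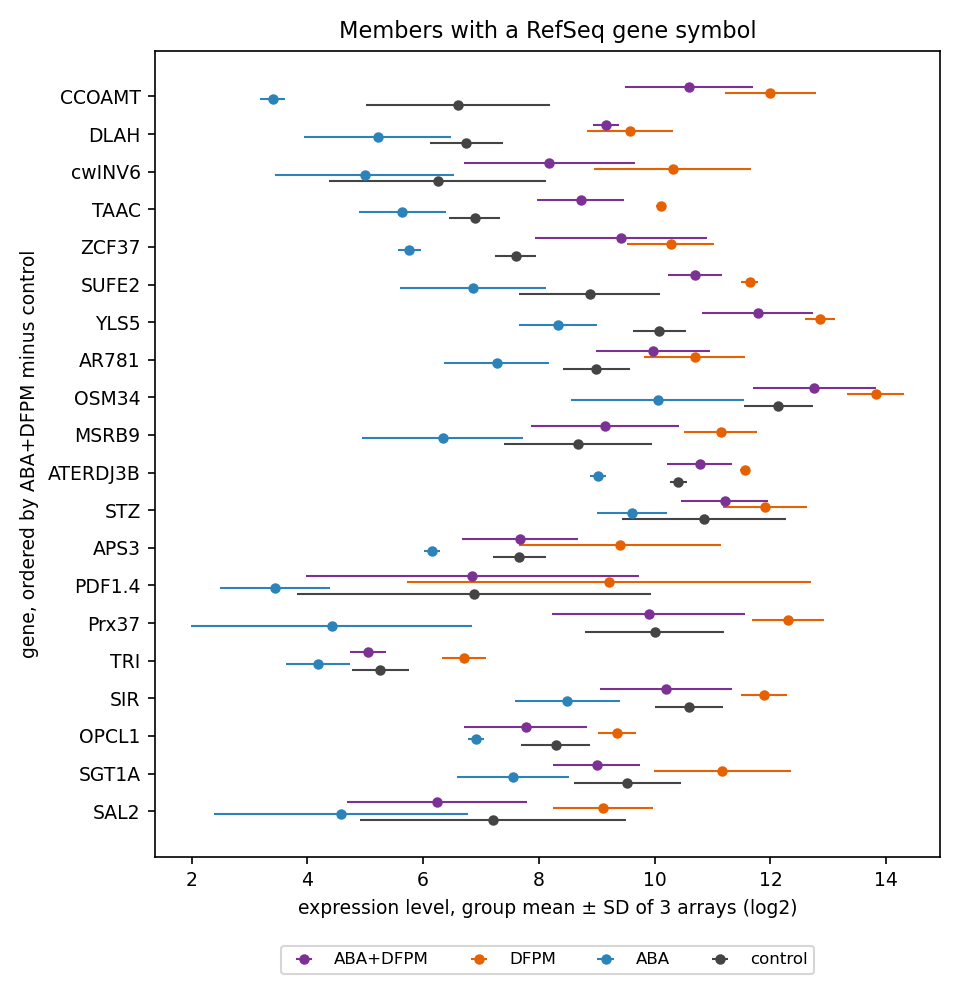
Group means of expression level (log2) with bars of 1 SD over 3 arrays for the 20 members with a RefSeq gene symbol, ordered from the highest ABA+DFPM minus control at the top to the lowest at the bottom. In all 20 genes the ABA mean is the lowest of control, ABA and DFPM, as the rule requires, and the ABA+DFPM mean moves from 3.99 above control in CCOAMT to 0.97 below it in SAL2.

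Some members were neighbours on the chromosome, a feature the rule did not use. In the RefSeq gene order 155 member genes could be placed, and 18 of them (11.6%) had another member with at most 4 protein-coding genes in between, in 10 pairs of which 6 were next door. Of 83 placed genes with the opposite pattern, raised by ABA and lowered by DFPM, 2 (2.41%) were in such a pair. That set is smaller, which by itself makes pairs rarer, and the share for all candidates was not counted. Neighbours with similar sequence could share signal on the array. The largest group of neighbouring members, on chromosome 1, held AT1G72890, AT1G72920, AT1G72940 and AT1G72950.

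Within this group AT1G72920 had 8.21, 8.47 and 9.38 with ABA+DFPM, 10.53, 9.77 and 10.53 with DFPM, 4.32, 4.12 and 5.75 with ABA and 5.97, 5.01 and 8.03 in control, and rose by 2.35 ± 0.71 against control (adjusted p = 0.0211). AT1G72940 rose by 2.08 ± 0.46 and AT1G72890 gave 1.80 ± 0.86 (adjusted p = 0.111, blocked 0.00153, averaged 0.0177). AT1G72950 was dim, with 3.12, 3.16 and 3.06 with ABA+DFPM, 4.3, 5.2 and 4.86 with DFPM, 2.45, 2.57 and 2.40 with ABA and 3.20, 3.07 and 4.32 in control, and gave -0.42 ± 0.33. The next-door pair Prx37 and AT4G08780 gave -0.11 ± 1.18 and 1.24 ± 0.97 against control (blocked adjusted p = 0.0468 for AT4G08780, averaged 0.107).

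Other genes of the pathways, from lists of symbols, were few on the array under a single name. Of 5 pattern-triggered immunity genes, none of them a member, 4 fell with ABA and 2 rose with DFPM, and with ABA+DFPM 1 rose and 2 fell against control. The receptor gene EFR changed by -0.75 and gave 1.28 for DFPM and -0.87 for ABA. PUB24, a ubiquitin ligase that dampens this immunity, rose by 2.54 and PUB22, its relative, changed by -1.39. Of 6 WRKY transcription factor genes 3 fell and 1 rose with ABA, 1 rose with DFPM, and with ABA+DFPM WRKY6 rose by 2.27 and WRKY47 changed by -2.24 against control. From the 9 stress genes known to be induced by ABA, 6 were higher with ABA+DFPM and 6 with ABA against control. COR15B and COR47 fell with DFPM, by 2.11 and 1.03, and COR15A rose by 6.36 with ABA+DFPM and 9.60 with ABA. None of these 9 was a member. Over all probe sets, 2099 rose and 2066 fell with ABA and 1827 rose and 1636 fell with DFPM.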

How the data were processed

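RNA of 12 seedling samples was measured on Affymetrix arrays. The deposited values are log2 expression per probe set, made by the authors with GCRMA and affy per the submitters' processing notes; a version of either is not given in sources used here. Values between 2.14 and 15.56 bear out that scale. Of 22810 probe sets, 64 control probe sets were left out, and 14401 that reached log2 4 on at least 3 of 12 arrays were tested. Names came from the platform table and RefSeq (assembly TAIR10.1, for names and gene order only); 13513 probe sets named 1 gene, 503 several and 8730 none. No sequence was used here, and the planned promoter motif search was not run.

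limma 3.58.1 (R 4.3.3; lmFit and eBayes, all 12 arrays, no covariate, two-sided) compared ABA+DFPM with control, ABA and DFPM, with Benjamini-Hochberg adjustment over all 14401 probe sets at 0.05. The fit was tested on simulated data. The members and lists were chosen with earlier results of these data known. The named genes were the 12 members with the largest smaller change, the 6 highest and 6 lowest in ABA+DFPM minus control and members in the lists. The replicate numbers of the titles recur in all groups, and deviations from group means correlated in all 18 same-number pairs (lowest r 0.426, highest 0.802). Pairs of unlike number were not compared, and array 3 was less like the others in every group. The correlations therefore do not show that numbers 1 and 2 each pair across groups. The calls reported as the result come from the unblocked fit, and blocked values stand beside them; "averaged" marks the blocked fit in which arrays 1 and 2 of each group are averaged. Alternatives were the block, filters, normalization, floor, variance prior, the arrays in the fit and leaving out arrays. The sum of single effects and leaving out all arrays numbered 3 were added after the data were seen. Figures and tables used Python 3.11.15, pandas 2.3.3, numpy 2.4.6 and matplotlib 3.10.9.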

Additional observations from a re-analysis of the deposited data

How the results depend on the processing

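With the replicate number as a block (replicate block) members higher than control numbered 53 in place of 30, lower than control 14 in place of 6 and lower than DFPM 99 in place of 40. With all arrays numbered 3 left out these were 58, 40 and 145, or 36.2%, 25% and 90.6% of the members against 31.4%, 37.1% and 29.5% of all probe sets. Members lower than DFPM numbered 24 in the blocked fit that averages arrays 1 and 2, 24 with no filter on low values and 15 with only the 2 groups compared in the fit. Leaving out 1 array at a time gave 17 to 35 members higher than control, 4 to 17 lower than control, 66 to 98 higher than ABA in place of 93, and 17 to 83 lower than DFPM. No share over all probe sets is given for the fits without 1 array, without the filter or with only the 2 groups. The shifts in those fits therefore cannot be read as particular to the members. The causes of the shifts in all these counts were not tested. The rule gave 60 members at a limit of 1.5, 308 with probe sets of no or several gene names included, and 135 to 185 without 1 array. Of the named genes' values, 35 gained a call in the blocked fit, and 12 of them also gained one with arrays 1 and 2 averaged. The interaction passed in 0 to 4 members except for the 32 with the arrays numbered 3 left out. Of 2520 values of the named genes under the alternatives, 98 lost a call, 123 gained one and 0 turned a called direction. With 3 arrays per group, the number of arrays limits the precision, and members near log2 2 to 4 lie near background.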
